A study of Mus musculus with 15 samples.

Results

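MHC class II genes were followed through 15 whole mouse epididymides that differ in the number of intact Plag1 alleles. The 7 genes, H2-Aa, H2-Ab1, H2-Eb1, H2-DMa, H2-DMb1, Cd74 and Ciita, were chosen by symbol, with earlier results of these data known. All 7 are among the 41591 gene IDs of the deposited read counts, and all 7 passed the filter on low counts that left 19388 genes for testing. The epididymis is the coiled duct behind the testis in which sperm mature and are stored. Plag1 encodes a zinc finger transcription factor.

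The mice were 7 weeks old, carried the strain label Brown Swiss, and comprised 5 wild types (WT), 5 Plag1 -/+ heterozygotes (HET) and 5 Plag1 -/- knockouts (KO). Each library came from 1 animal and bears its number, as in WT-709. The labels do not say how Plag1 was disrupted, which cells lack it, or what the animal numbers stand for. The organ was sampled whole after sperm had been rinsed out. A higher level of a transcript in such bulk tissue cannot be told apart from a larger number of the cells that carry it.

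Class II molecules are pairs of an alpha and a beta chain that present peptides from endosomes to CD4 T cells. Dendritic cells, B cells and many macrophages carry them. New pairs are assembled on the invariant chain Cd74 and sent to endosomes, where proteases such as cathepsin S trim Cd74 and the DM heterodimer exchanges its remnant for a peptide. Transcription of the chains, of DM and of much of Cd74 depends on the coactivator Ciita, which is recruited by RFX and NF-Y factors bound at promoter elements called the X and Y boxes. Interferon gamma is the classical inducer of Ciita. In the epididymis, mononuclear phagocytes lie close to the duct epithelium.

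RefSeq promoter windows, from 250 bases before to 50 after an annotated start site, were found for 4 of the 7 genes. Among these genes, H2-Eb1 was higher in KO than in WT by the test described below, and H2-DMb1 and H2-Aa did not pass it. The windows of H2-Eb1, H2-DMb1 and H2-Aa are printed to show where matches to class II promoter elements lie. Each reads 5′ to 3′ on the strand of its gene in build GRCm38.p6, at chr17:34305617-34305916 (plus strand), chr17:34152941-34153240 (plus strand) and chr17:34287774-34288073 (minus strand). Capitals mark matches to AGNAACNG, part of the X box, and to CCAAT, the Y box core, on either strand.
H2-Eb1: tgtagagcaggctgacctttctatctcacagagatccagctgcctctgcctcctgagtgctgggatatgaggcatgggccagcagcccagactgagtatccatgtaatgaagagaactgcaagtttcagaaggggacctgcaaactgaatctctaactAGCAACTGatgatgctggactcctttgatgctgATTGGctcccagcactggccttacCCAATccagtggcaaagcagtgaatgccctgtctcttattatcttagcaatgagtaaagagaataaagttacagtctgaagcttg
H2-DMb1: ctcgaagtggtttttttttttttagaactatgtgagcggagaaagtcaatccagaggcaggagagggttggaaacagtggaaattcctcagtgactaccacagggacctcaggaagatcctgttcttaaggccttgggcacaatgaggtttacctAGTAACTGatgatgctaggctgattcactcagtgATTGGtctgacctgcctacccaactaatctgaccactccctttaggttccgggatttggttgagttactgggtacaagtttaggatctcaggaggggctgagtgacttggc
H2-Aa: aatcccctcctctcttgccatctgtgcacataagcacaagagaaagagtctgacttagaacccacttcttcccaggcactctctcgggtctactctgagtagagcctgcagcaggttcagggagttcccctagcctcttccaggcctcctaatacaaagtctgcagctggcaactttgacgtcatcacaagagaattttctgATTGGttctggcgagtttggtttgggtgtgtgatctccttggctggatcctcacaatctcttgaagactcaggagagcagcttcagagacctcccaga

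In the H2-Eb1 window, AGNAACNG began 92 bases before the start site and CCAAT matches lay 59 and 35 bases before it. In the H2-DMb1 window the X box match began 95 bases and the Y box match 61 bases before the start. The H2-Aa window held a CCAAT match 48 bases before the start and no AGNAACNG. Among 32851 RefSeq promoter windows of this length, 37.4% held CCAAT and 17.4% held AGNAACNG on either strand. The ordered pair, with AGNAACNG first and the starts of the matches 15 to 60 bases apart, occurred in 0.642% of the windows, H2-Eb1 and H2-DMb1 among them. A match describes letters and shows no binding.

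The 5 WT libraries held 20.3 to 27.8 M counts, the HET libraries 23.6 to 33.8 M and the KO libraries 25.3 to 42 M. Plag1 transcripts were lower in KO than in WT without overlap but were not absent, at 6.99 to 9.36 counts per M counts of the library (CPM) in KO, 8.11 to 11.8 in HET and 11.9 to 14.0 in WT. Ribosomal RNA genes took over 1% of the counts in HET-693 and KO-738 and at most 0.509% in the others. KO-738 also stood apart from the other KO libraries in its cell type markers, as given below.

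Cd74, H2-Eb1 and Ciita were higher in KO than in WT, by 1.41-fold, 2.02-fold and 1.75-fold. H2-Aa, H2-Ab1, H2-DMa and H2-DMb1 did not pass the test. Between libraries of the same genotype these 4 varied several-fold, and a different set of libraries, with some shared, was high for each gene. In HET, 0 of the 7 passed against WT. Levels are in CPM, scaled by edgeR's TMM factors, and spreads are SD over the 5 animals of a genotype.

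**Figure D1:**
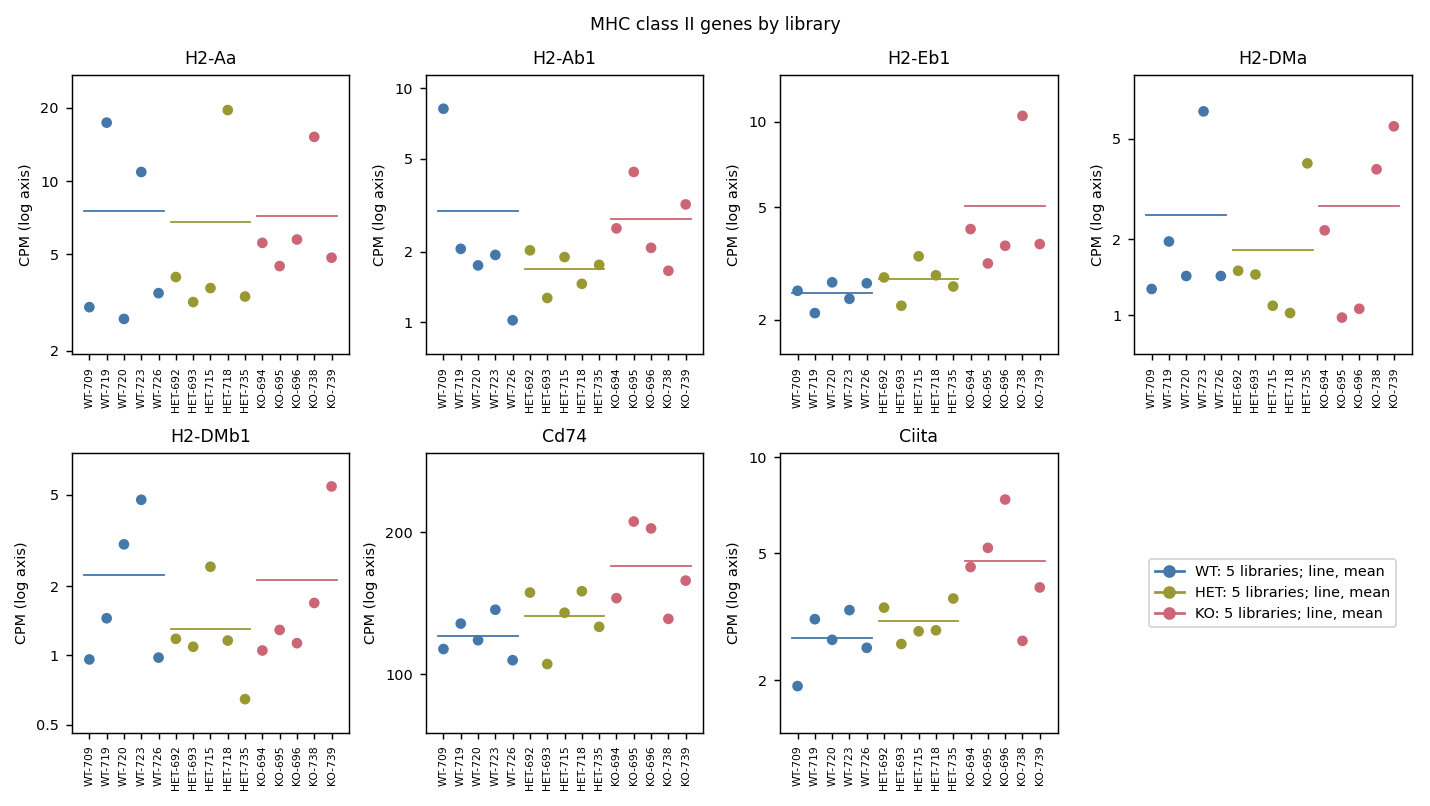
Level in CPM (vertical axes, logarithmic) of each of the 7 MHC class II genes in every library. Each point is 1 animal, colours mark WT, HET and KO, and the line is the mean of 5 libraries. Cd74 and Ciita shift upward in 4 of 5 KO libraries. H2-Aa, H2-DMa and H2-DMb1 have a few high libraries, in more than 1 genotype, and H2-Ab1 is highest in a WT library.

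Among the classical chains, H2-Eb1 (NCBI Gene 14969; GRCm38.p6 chromosome 17, 34305867 to 34316674) encodes a beta chain of the E molecule. Its level was 2.53, 2.11, 2.71, 2.37 and 2.69 CPM in WT-709, WT-719, WT-720, WT-723 and WT-726. In HET-692, HET-693, HET-715, HET-718 and HET-735 it was 2.82, 2.24, 3.35, 2.87 and 2.62 CPM, and in KO-694, KO-695, KO-696, KO-738 and KO-739 it was 4.18, 3.16, 3.65, 10.5 and 3.70 CPM. All 5 KO libraries lay above all 5 WT libraries, and KO-738 lay far above the other 4. Such a separation of KO above WT occurred for 1 of the 7 genes and for 2.84% of all genes tested. Against HET, 4 of 5 KO libraries were above every library. Below, values are given in the same order of libraries.

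H2-Aa (NCBI Gene 14960; chromosome 17, 34282744 to 34287823) encodes the alpha chain of the A molecule. It measured 3.03, 17.4, 2.71, 10.9 and 3.46 CPM in WT, 4.03, 3.18, 3.63, 19.6 and 3.35 CPM in HET, and 5.57, 4.47, 5.75, 15.2 and 4.84 CPM in KO. WT-719, WT-723, HET-718 and KO-738 stood between 10.9 and 19.6 CPM while the other 11 libraries stayed between 2.71 and 5.75 CPM, so that the gap did not follow genotype.

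H2-Ab1 (NCBI Gene 14961; chromosome 17, 34263227 to 34269418) encodes the beta chain that pairs with H2-Aa. Its values were 8.18, 2.06, 1.75, 1.94 and 1.02 CPM in WT, 2.03, 1.27, 1.90, 1.46 and 1.76 CPM in HET, and 2.52, 4.39, 2.08, 1.66 and 3.19 CPM in KO. The highest library was WT-709, in which its partner H2-Aa was at 3.03 CPM. In the 4 libraries with high H2-Aa, H2-Ab1 was between 1.46 and 2.06 CPM. The other gene of the E molecule, H2-Ea, had 0 counts in all 15 libraries, and H2-Eb2 was at 0 in 9 of them, so neither was tested.

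The DM heterodimer loads peptides onto class II pairs in endosomes. H2-DMa (NCBI Gene 14998; chromosome 17, 34119693 to 34139101), its alpha chain, measured 1.27, 1.96, 1.43, 6.43 and 1.43 CPM in WT, 1.5, 1.45, 1.09, 1.02 and 4.0 CPM in HET, and 2.17, 0.978, 1.06, 3.79 and 5.61 CPM in KO. WT-723, HET-735, KO-738 and KO-739 were high, and the genotypes overlapped. The annotated span of H2-DMa overlaps that of Brd2 on the opposite strand, and the strand setting of the counting is not given in the sources used here, so reads of the shared part are uncertain.

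H2-DMb1 (NCBI Gene 14999; chromosome 17, 34153191 to 34160229) encodes a DM beta chain and has a close copy, H2-DMb2, beside it. It measured 0.960, 1.45, 3.04, 4.75 and 0.978 CPM in WT, 1.18, 1.09, 2.43, 1.16 and 0.645 CPM in HET, and 1.05, 1.29, 1.13, 1.69 and 5.43 CPM in KO. WT-720, WT-723, HET-715 and KO-739 were high. H2-DMb2 was at 9.68 CPM in HET-735, the library in which H2-DMb1 was lowest, and at 1.11 to 3.07 CPM elsewhere. How reads that fit both copies were counted is not given in the sources used here.

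Ciita (NCBI Gene 12265; chromosome 16, 10480014 to 10531064), the coactivator, measured 1.92, 3.11, 2.68, 3.32 and 2.53 CPM in WT, 3.38, 2.60, 2.85, 2.87 and 3.61 CPM in HET, and 4.53, 5.20, 7.37, 2.66 and 3.91 CPM in KO. KO-694, KO-695, KO-696 and KO-739 lay above all WT and all HET libraries. KO-738 lay within the WT range.

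Cd74 (NCBI Gene 16149; chromosome 18, 60803849 to 60812652), the invariant chain, measured 113, 128, 118, 137 and 107 CPM in WT, 149, 105, 135, 150 and 126 CPM in HET, and 145, 211, 204, 131 and 158 CPM in KO. The same 4 KO libraries lay above all WT libraries, and KO-738 again lay within the WT range. Against HET, KO-695, KO-696 and KO-739 were above every library.

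Per kilobase of annotated exon, the median WT level was 70.2 CPM for Cd74, 1.30 for H2-Eb1, 0.912 for H2-Aa, 0.865 for H2-DMb1, 0.754 for H2-Ab1, 0.414 for H2-DMa and 0.281 for Ciita. Cd74 was thus counted far above the chains it escorts. Lengths were unions of all annotated exons, 1679 bases for Cd74 and 3798 for H2-Aa. Whether alleles of the chains that differ from the reference genome lowered their counts was not tested. The WT ranges of H2-Eb1, H2-Aa, H2-DMb1, H2-Ab1 and H2-DMa overlapped, so these 5 neighbours in the order did not differ beyond their spread. Raw counts per library ran from 2544 to 8835 for Cd74. They ran from 76 to 539 for H2-Aa, from 25 to 213 for H2-Ab1, from 42 to 336 for H2-Eb1, from 28 to 188 for H2-DMa, from 15 to 182 for H2-DMb1 and from 50 to 319 for Ciita.

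The comparison of KO with WT asks which class II genes differ when both Plag1 alleles are disrupted. By edgeR's quasi-likelihood test with Benjamini-Hochberg adjustment over all genes tested, 3 of the 7 genes were higher in KO at an adjusted p under 0.05 and 0 were lower, against 4.40% of all genes higher and 1.60% lower. H2-Eb1 rose from 2.48 ± 0.251 to 5.04 ± 3.09 CPM (SD, n = 5 each), a log2 fold change of 1.01 ± 0.28 (SE, edgeR adjusted p = 0.0432). Cd74 rose from 121 ± 11.9 to 170 ± 35.9 CPM, a log2 fold change of 0.49 ± 0.13 (SE, edgeR adjusted p = 0.0406). For Ciita the change was from 2.71 ± 0.547 to 4.73 ± 1.74 CPM, or 0.81 ± 0.22 on the log2 scale (SE, edgeR adjusted p = 0.0408).

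The 4 other genes had log2 fold changes near 0 with wide 95% intervals in the same fit. H2-Aa was at 7.51 ± 6.50 CPM in WT and 7.17 ± 4.53 in KO (interval -1.49 to 1.38), and H2-Ab1 at 2.99 ± 2.93 and 2.77 ± 1.07 CPM (interval -1.09 to 0.86). H2-DMa was at 2.50 ± 2.21 and 2.72 ± 1.97 CPM (interval -1.15 to 1.36), and H2-DMb1 at 2.24 ± 1.64 and 2.12 ± 1.87 CPM (interval -1.26 to 1.08). These intervals include a doubling and a halving of H2-Aa, H2-DMa and H2-DMb1, so the libraries do not show that these genes are alike in the 2 genotypes. The median log2 fold change of the 7 genes was 0.11, and that of all genes tested was -0.01.

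All 3 calls lay close to the threshold, and leaving out most single libraries ended them. Of 15 edgeR fits that each left out 1 library, H2-Eb1 passed in 3 (without KO-695, KO-738 or KO-739), with log2 fold changes of 0.56 to 1.15 and adjusted p of 0.00942 to 0.0899. Cd74 passed in 5 (without HET-692, HET-693, HET-718, KO-694 or KO-738), with 0.41 to 0.58 and 0.00727 to 0.113. Ciita passed in 3 (without HET-692, KO-738 or KO-739), with 0.59 to 0.96 and 0.00321 to 0.111. Without KO-738, the log2 fold change of H2-Eb1 was 0.56 (edgeR adjusted p = 0.00942), that of Cd74 0.58 (0.00727) and that of Ciita 0.96 (0.00321). In that fit 15% of all genes were called, and over the 15 fits the share ran from 1.63% to 15%.

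The WT animals all carry numbers above 700, while 3 KO and 2 HET animals carry numbers below it. With that number range as a term in the edgeR fit, H2-Eb1 stayed past the threshold at 1.32 (adjusted p = 0.034), and Cd74 at 0.41 (0.211) and Ciita at 0.54 (0.268) did not. That fit called 0.913% of all genes. In it, the KO animals numbered above 700 were KO-738, at 10.5 CPM of H2-Eb1, and KO-739, at 3.70 CPM. The term was not fitted without KO-738. Among animals numbered 700 and above, which leave 2 KO libraries, the log2 fold changes were 1.51 for H2-Eb1, 0.27 for Cd74 and 0.29 for Ciita (edgeR adjusted p = 0.104, 0.274 and 0.551), and 0% of all genes were called.

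**Figure D2:**
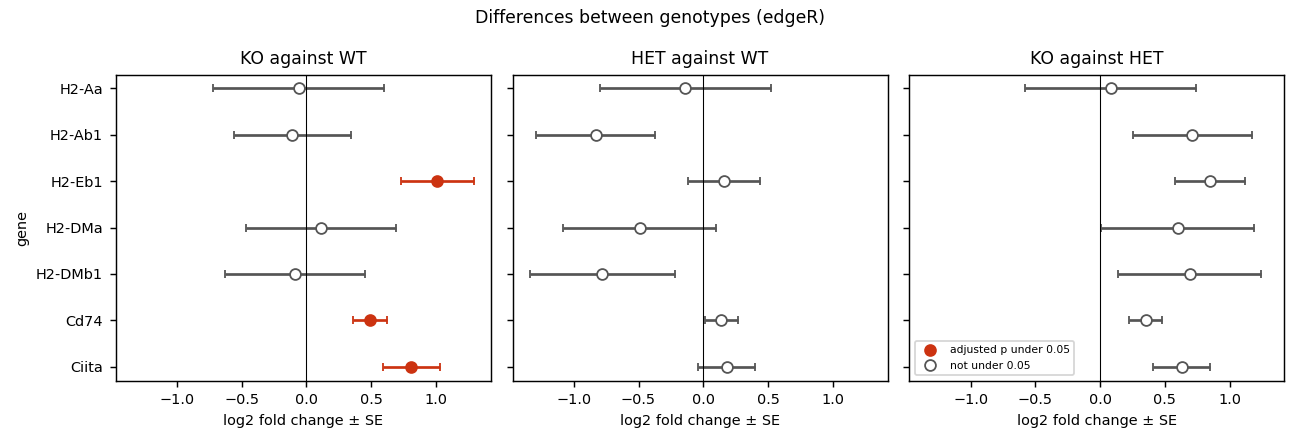
Log2 fold change with SE (horizontal axes) of each MHC class II gene (vertical axis) in the 3 comparisons, from 1 edgeR fit of 15 libraries; filled red points have an adjusted p under 0.05. H2-Eb1 at 1.01, Cd74 at 0.49 and Ciita at 0.81 are the filled points, all in KO against WT.

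The comparison of HET with WT asks about the loss of 1 intact allele. It shares the WT libraries with the comparison above. EdgeR called 0 of the 7 genes, and 0 had an unadjusted p under 0.05. DESeq2 and limma voom also called 0 of them, and 1 and 0 of all genes. Of all genes tested edgeR called 0%, with 854 at an unadjusted p under 0.05. Cd74 was at 133 ± 18.9 CPM in HET, a log2 difference from WT of 0.14 ± 0.13 (SE), Ciita at 3.07 ± 0.416 CPM (0.18 ± 0.22) and H2-Eb1 at 2.78 ± 0.402 CPM (0.16 ± 0.28). The other differences were -0.14 ± 0.66 for H2-Aa, -0.83 ± 0.46 for H2-Ab1, -0.49 ± 0.59 for H2-DMa and -0.78 ± 0.56 for H2-DMb1, with edgeR adjusted p from 0.981 to 0.999 for all 7.

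Between KO and HET, which share libraries with the comparisons above, edgeR also called 0 of the 7 genes, against 1.96% of all genes tested (1.61% higher in KO). In 0 of the 7 did every KO library exceed every HET library, as happened for 2.18% of all genes. Unadjusted p was under 0.05 for 3 of the 7, and for 20.8% of all genes. H2-Eb1 differed by 0.85 ± 0.27 (SE, edgeR adjusted p = 0.101), Ciita by 0.63 ± 0.22 (0.117) and Cd74 by 0.35 ± 0.13 (0.143). The others differed by 0.08 ± 0.66 (H2-Aa), 0.71 ± 0.46 (H2-Ab1), 0.60 ± 0.59 (H2-DMa) and 0.69 ± 0.55 (H2-DMb1), with edgeR adjusted p from 0.408 to 0.962. DESeq2 called 1 of the 7, H2-Eb1, and 6.41% of all genes, and limma voom called 1, Ciita, and 10.1% of all genes. All 7 differences were positive, with a median log2 value of 0.63 against -0.01 for all genes tested. Without KO-738, edgeR called Cd74 at 0.44 (adjusted p = 0.0356) and Ciita at 0.79 (0.013), and the share of all genes called rose to 12.5%.

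The pathway around the 7 genes moved in few places between KO and WT. Of the 8 genes of the transactivator and its promoter complex, Ciita alone rose and 0 fell, and the list's median log2 difference was -0.01. Rfx5, an RFX subunit, was at 26.5 ± 1.51 CPM in WT and 26.2 ± 1.59 in KO. Nfya, an NF-Y subunit, was at 29.2 ± 0.755 and 30.9 ± 0.978 CPM, with a log2 difference of 0.08 ± 0.04 (SE, edgeR adjusted p = 0.291).

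Of 8 genes for endosomal processing, 2 rose and 0 fell, with a median log2 difference of 0.01. Ctss, the cathepsin that cleaves the invariant chain, rose from 17.4 ± 1.36 to 24.9 ± 3.84 CPM (log2 0.52 ± 0.10, SE, edgeR adjusted p = 0.00921). Ctsb, another lysosomal cathepsin, rose from 360 ± 11.3 to 420 ± 34.6 CPM (0.23 ± 0.05, adjusted p = 0.0284). Of the genes that set the stay of class II at the cell surface, 0 of 2 tested passed by edgeR. Cd83, which protects class II from the ubiquitin ligase Marchf1, differed by 0.35 ± 0.13 (adjusted p = 0.116) and Marchf1 by 0.40 ± 0.22 (0.285).

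On the path from interferon gamma to Ciita, 7 of 8 genes were tested, and by edgeR 0 rose and 1 fell. That gene was Jak2, a kinase of the interferon gamma receptor, which fell by 0.26 on the log2 scale (SE 0.07, adjusted p = 0.0389) from 150 ± 9.86 to 126 ± 12.3 CPM. Ifng itself was at 0 in 10 libraries and at most 0.0728 CPM in the others. Of 7 genes tested for co-stimulation and partner receptors edgeR called 0. Cd86, a co-stimulatory ligand, differed by 0.61 ± 0.22 (adjusted p = 0.11) and Cd274, the ligand of PD-1, by 0.28 ± 0.12 (0.153).

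Class I genes were set beside them. Of 9 tested, 1 rose and 0 fell in KO against WT. Tap1, a subunit of the peptide transporter, rose from 1.11 ± 0.453 to 2.23 ± 0.417 CPM (log2 1.01 ± 0.25, SE, edgeR adjusted p = 0.0292), and its difference from HET was 1.0 (adjusted p = 0.0471). H2-K1, a class I heavy chain, differed by -0.52 ± 0.15 (adjusted p = 0.0584). In HET against WT, edgeR called 0 genes of every pathway and marker list, as of all genes tested.

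Markers of cells that carry class II were read in the same libraries. Of 15 macrophage and monocyte markers, all tested, 6 rose in KO against WT by edgeR and 0 fell, and the median log2 difference was 0.49. They were Adgre1 (0.77), Csf1r (0.65), Cx3cr1 (0.64), Lyz2 (1.01), C1qb (0.49) and Mrc1 (1.04). Csf1r, the receptor for the macrophage growth factor, rose from 18.5 ± 2.38 to 29.0 ± 5.34 CPM (edgeR adjusted p = 0.00596). Summed, the 15 markers reached 137 to 161 CPM in WT libraries, 155 to 174 CPM in HET libraries and 159 to 238 CPM in KO libraries, lowest of the KO in KO-738.

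Set beside these markers, Cd74 differed from WT by a like amount on average. On the log2 scale, the mean of the macrophage markers lay 0.53, 0.57, 0.52, 0.01 and 0.65 above its WT mean in KO-694, KO-695, KO-696, KO-738 and KO-739, a mean of 0.46. Cd74 lay 0.27, 0.81, 0.76, 0.12 and 0.40 above its own WT mean, a mean of 0.47. Cd74 minus the markers was -0.26, 0.24, 0.24, 0.11 and -0.25 in KO, a mean of 0.02, and ranged from -0.17 to 0.20 in WT. In Ciita the same difference was 0.22, 0.38, 0.92, -0.01 and -0.11 in KO, a mean of 0.28. It ranged from -0.39 to 0.32 in WT. KO-738, with macrophage markers at the WT level, had Cd74 and Ciita in the WT range and the highest H2-Eb1 of all libraries. The germ cell markers lay 1.49, 1.79, 2.68, -0.28 and 0.85 above their WT mean in the same KO libraries, which is the order of the 5 in Ciita, from KO-696 down to KO-738. What part the macrophage and germ cell content had in these results was not tested.

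**Figure D3:**
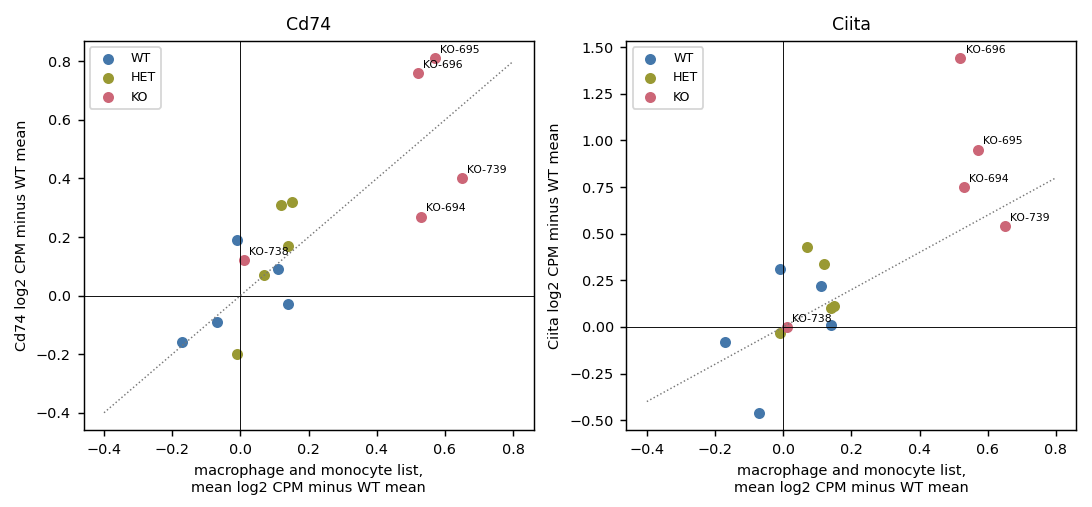
Log2 CPM minus the WT mean of Cd74 and of Ciita (vertical axes, 1 panel each) against the mean of 15 macrophage and monocyte markers on the same scale (horizontal axes); each point is 1 library, colours mark genotype, KO libraries carry their names and the dotted line marks equal differences. Cd74 in KO lies around the dotted line, with KO-738 near the WT libraries.

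Other cell markers differed too. Of 8 dendritic cell markers tested, edgeR called 0, with Itgax at 0.81 ± 0.33 (adjusted p = 0.148) and Xcr1 at 0.46 ± 0.20 (0.175), and the median was 0.45. Of 4 B cell markers tested, 2 rose by edgeR, Cd79b by 1.45 ± 0.29 (adjusted p = 0.0131) and Ighm by 1.79 ± 0.43 (0.0283). Both were low, at a KO mean of 0.423 and 1.12 CPM, and the summed B cell list ran from 2.40 to 4.15 CPM in WT, 4.12 to 4.85 in HET and 4.0 to 6.31 in KO. Of 5 T and NK cell markers tested 0 were called, with Il7r at 0.88 ± 0.30 (adjusted p = 0.0862) and Cd3e at 0.54 ± 0.21 (0.165).

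Of 5 pan-leukocyte genes 0 were called, with Ptprc at 0.41 ± 0.14 (edgeR adjusted p = 0.0823) and Cd52, which duct epithelium also makes, at -0.65 ± 0.22 (0.0895). Epithelial markers had 0 of 10 called, with Crisp1 at -0.44 ± 0.16 (edgeR adjusted p = 0.113) and Lcn8 at 0.38 ± 0.19 (0.243), and a median of -0.02. They summed to 37600 to 58300 CPM over the 15 libraries, so the defining genes of the labelled tissue were abundant in each. Of 7 germ cell markers 5 rose in KO (Ddx4, Ldhc, Fabp9, Akap3 and Meig1), and their summed level was 53.6, 69.2, 122, 16.1 and 45.7 CPM in the 5 KO libraries, against 13.5 to 27 CPM in WT.

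Tissue next to the duct was present in unequal amounts. Of 6 fat cell markers Lpl rose in KO, by 2.03 ± 0.42 (SE, edgeR adjusted p = 0.0182), and the list was highest in KO-695, at 3.72 above its WT mean on the log2 scale. Skeletal muscle markers had 0 of 5 called, with Myh1 at 8.20 ± 2.45 (adjusted p = 0.0677) and Mylpf at 5.82 ± 1.78 (0.0725), and were highest in KO-739, at 7.48. The part of these tissues in the differences of Cd74, Ciita and H2-Eb1 was not tested.

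The spread of the 4 genes that were not called in KO against WT was wide for their level. The SD of log2 CPM within genotypes was 1.03 for H2-Aa, 0.93 for H2-DMa, 0.87 for H2-DMb1 and 0.72 for H2-Ab1. Among the 500 genes nearest in mean level, these SDs were at percentiles 98.8, 98.6, 97.4 and 94.0, where the median gene had 0.20, 0.29, 0.30 and 0.28. Cd74 had an SD of 0.23 (percentile 92.8), H2-Eb1 one of 0.42 (85.0) and Ciita one of 0.37 (80.8).

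The wide spread was shared by neighbours in the class II region of chromosome 17. Between 34092379 and 34344645, from H2-Oa to H2-Ea, an interval chosen after values had been seen, the table lists 16 genes, of which 11 were tested. Of these, 8 (72.7%) had a spread at or above the 95th percentile for their level, against 5.28% of all genes tested. Leaving out the 5 class II genes named at the start, 5 of 6 did (Brd2, H2-DMb2, Psmb9, Psmb8 and Tap2), and Tap1, at percentile 69.8, did not. The highest library often differed between neighbours. Psmb8, an immunoproteasome subunit, was highest in KO-696 at 4.78 CPM and Tap2, a transporter subunit, in KO-695 at 5.95 CPM. H2-Ab1, the next gene tested, was highest in WT-709 at 8.18 CPM. Some libraries recurred: KO-739 was highest for Brd2 at 22.8 CPM and for H2-DMb1 at 5.43 CPM. WT-723 was highest for H2-DMa at 6.43 CPM and for Psmb9 at 1.53 CPM. As background, class II chains differ strongly in sequence between mouse strains, and the reference genome is that of C57BL/6J. Whether alleles or reads placed at several loci moved these counts was not tested.

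**Figure D4:**
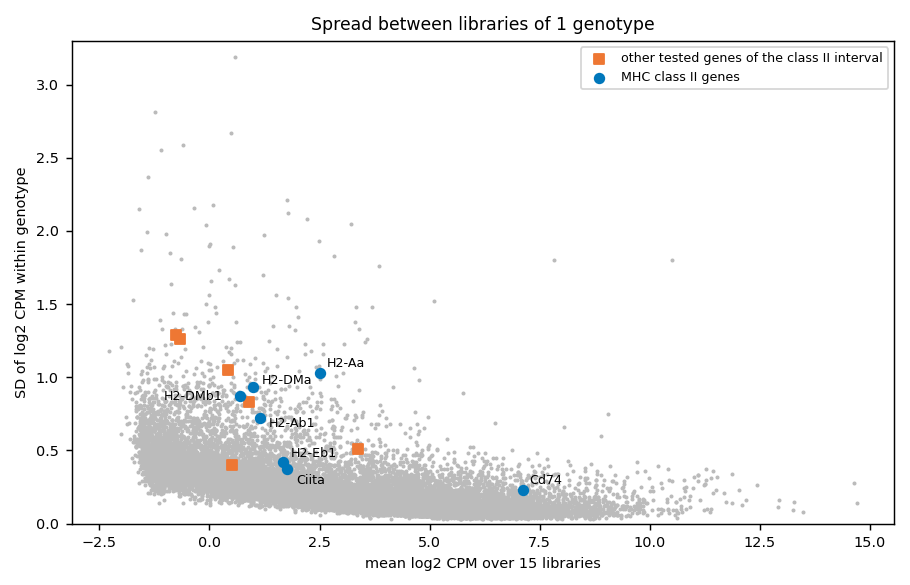
SD of log2 CPM within genotypes (vertical axis) against mean log2 CPM over 15 libraries (horizontal axis); each grey point is 1 of 19388 genes tested, blue circles are the 7 MHC class II genes and orange squares the 6 other tested genes of the class II interval. H2-Aa at 1.03, H2-DMa at 0.93 and H2-DMb1 at 0.87 lie along the upper edge of genes of their level.

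**Figure D5:**
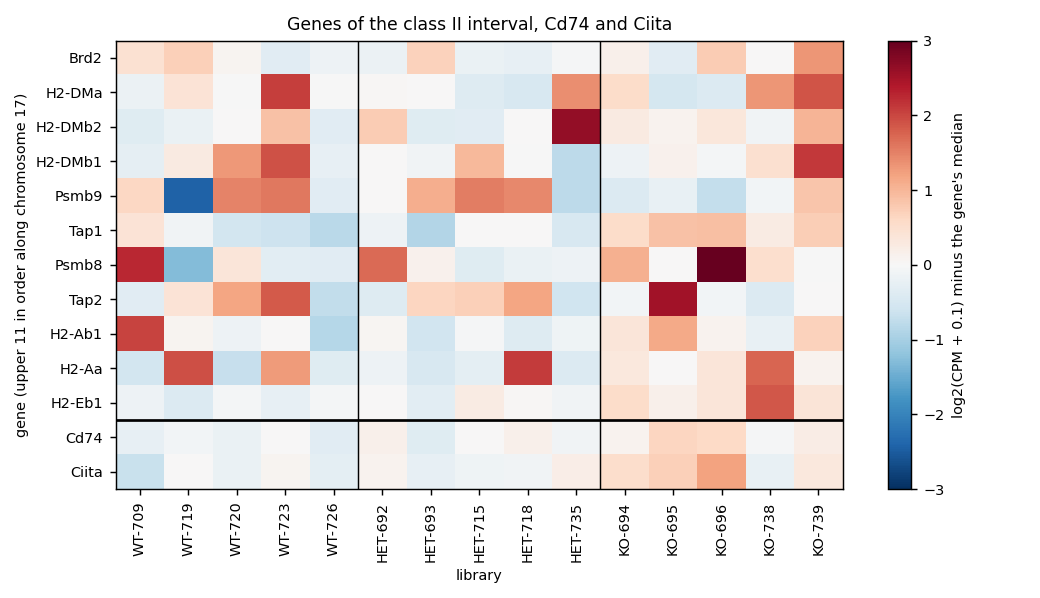
Log2 of CPM plus 0.1, minus the gene's median over 15 libraries (colour), in each library (columns, by genotype). Rows above the line are the 11 tested genes of the class II interval in chromosome order, and those below it are Cd74 and Ciita. High libraries often change from 1 gene to the next, with H2-Aa high in WT-719, WT-723, HET-718 and KO-738 and H2-Ab1 in WT-709. Some recur, such as WT-723 and KO-739.

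Likeness to the 7 genes was measured as Pearson r of log2 CPM over the 15 libraries, among tested genes of at least 1 CPM, as a description. The 7 genes did not all vary together. Cd74 and Ciita had r = 0.86, and the next highest pair, H2-DMa and H2-DMb1, 0.49. H2-Aa and H2-Ab1 had r = -0.20. Ciita had r = 0.06 with H2-Aa, 0.07 with H2-Ab1, 0.14 with H2-Eb1, -0.01 with H2-DMa and -0.02 with H2-DMb1. Spearman's rho of these pairs with Ciita ran from 0.07 to 0.53. The genes most like the mean of the 7 were Clip3 (r = 0.85), Tmem267 (0.84), A4galt, Slc6a2 and H2-Q4 (0.83 each), Ntn1 and Arrb1 (0.82 each), Gab2 (0.81), and Il16 and Atp5k-ps2 (0.80 each). H2-Q4, a class I gene elsewhere on chromosome 17, differed by 0.52 between KO and WT (edgeR adjusted p = 0.0505). Of these 10, 2 were still among the first 10 with genotype means taken out, 3 by Spearman's rho and 3 without KO-738.

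Gene by gene, Cd74 was most like Boc (r = 0.93), Cpz (0.92) and Sorcs2 (0.92), and Ciita most like Ccdc27, Lrrc18 and Olfml3 (0.93 each). H2-Eb1 was most like Rpl30-ps1 (0.88), Gstm2-ps1 (0.79) and Slc7a7 (0.78). For H2-Aa they were Smn1 (0.80), Serinc2 (0.79) and Park7 (0.75), and for H2-Ab1 Macrod1 (0.86), Gm36171 (0.85) and Nfic (0.85). H2-DMa was nearest to Gm34481 (0.83), Slc30a2 (0.83) and Rpusd2 (0.82), and H2-DMb1 to Dusp1 (0.84), Gm7363 (0.78) and Rpl34-ps2 (0.76). No gene stood among the first 3 of more than 1 of the 7. Of the first 10 for H2-Eb1, 0 stayed among the first 10 with genotype means taken out, by Spearman's rho or without KO-738. For the other genes, 4 to 7 of 10 stayed with genotype means taken out, 1 to 5 by rho and 4 to 8 without KO-738. Libraries of the same genotype share a mean, and depth and tissue content are common to all genes of a library.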

How the data were processed

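Stranded mRNA libraries were made from 2 µg of DNase-treated RNA of each epididymis, per the labels' protocols. The deposited values are raw read counts per NCBI Gene ID. Per the submitters' processing notes, the tools were FastQC, HISAT2 (version 2.0.5) and featureCounts (Subread version 1.4.6p5), and the build was GRCm38.p6. The strand setting, the treatment of reads with several placements and the annotation release are not given in the sources used here. Of 41591 IDs, 40290 (96.9%) were named through the RefSeq table of GRCm38.p6, whose coordinates are printed; the others stayed in the library sizes with at most 0.208% of the counts. Exon lengths are unions of GENCODE exons.

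The main test was edgeR's robust quasi-likelihood test (edgeR 4.0.16, R 4.3.3) with TMM factors and filterByExpr on genotype. It fitted all 15 libraries together, leaving 12 residual degrees of freedom. Two-sided p-values of 19388 genes were adjusted after Benjamini and Hochberg, and 0.05 was the threshold. The labels give genotype as the only factor. Libraries of 1 genotype differed by more than counting noise, so none was merged. The biological coefficient of variation was 16.3%. Alternatives were other scaling factors and filters, DESeq2 1.42.0, limma voom (limma 3.58.1), the 2 genotypes alone, the animal number range and left-out libraries. On simulated counts of 19175 genes the KO against WT test recovered 77.6% of 2-fold changes, with 4 false among 152 calls, and called 0 in HET against WT. The changed genes were drawn at random from all genes tested. The recovery need not hold for genes as variable as H2-Aa, H2-Ab1, H2-DMa and H2-DMb1.

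The 7 genes, the pathway and marker lists and the tests were chosen with earlier results of these data known. All 7 genes are named in every comparison. Of each list, genes past the threshold are named or, where none passed, the 2 with the smallest p. Plag1, H2-Ea, H2-Eb2, Rfx5, Ifng, H2-K1, Psmb8, Tap2, Brd2, Psmb9, H2-DMb2 and Nfya are named outside that rule, after their values were seen. Python 3.11.15 with pandas 2.3.3 wrote the tables, and matplotlib 3.10.9 drew the figures.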

Additional observations from a re-analysis of the deposited data

Results flagged for a closer look

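In 7 of the 21 groups of 5 libraries (7 genes in 3 genotypes), the highest library stood so far from the nearest other that its gap exceeded 0.71 of the group's range, Dixon's 95% critical value. For normally distributed values, about 1 group in 20 passes this value at either end. CPM values need not be normal, and the share over all genes tested is not given. The 7 of 21 therefore have no background to be set against. H2-Aa was at 19.6 CPM in HET-718, with the next HET library at 4.03 (gap over range 0.948), and at 15.2 CPM in KO-738, with the next at 5.75 (0.881). H2-Ab1 was at 8.18 CPM in WT-709 (next 2.06, ratio 0.855), and H2-Eb1 at 10.5 CPM in KO-738 (next 4.18, ratio 0.861). H2-DMa was at 6.43 CPM in WT-723 (next 1.96, ratio 0.867) and at 4.0 CPM in HET-735 (next 1.5, ratio 0.839). H2-DMb1 was at 5.43 CPM in KO-739 (next 1.69, ratio 0.853). All 5 class II genes on chromosome 17 are among them, and Cd74 and Ciita had no such library.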

How the results depend on the processing

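For KO against WT, 3 of the 7 genes were called by the reported edgeR fit, by DESeq2 and without the libraries over 1% ribosomal RNA genes. The same 3 were called with RLE, upper quartile or no scaling factors and with a filter at 1 CPM. Of all genes, the reported fit called 853 higher and 310 lower of 19388, and DESeq2 1313 and 617. RLE factors gave 846 and 301, upper quartile factors 1019 and 253, and no factors 924 and 295. The 1 CPM filter gave 786 and 271 of 16413. Without the libraries over 1% ribosomal RNA genes it was 1795 and 927 of 19476. Of the 7 genes, limma voom called 2 (Cd74 missed, adjusted p = 0.056), against 1063 higher and 630 lower of all genes. With no filter on low counts 1 was called (Ciita), against 673 higher and 175 lower of 34343. With the animal number range as a term 1 was called (H2-Eb1), against 0.913% of all genes. The count was 0 both among animals numbered 700 and above and with the 2 genotypes alone. Of all genes, the former fit called 0, and the latter 246 higher and 41 lower. Leaving out 1 library gave 0 to 3 of the 7 for KO against WT and 0 to 2 for KO against HET. The share of all genes called ran from 1.63% to 15% in the former and from 0% to 12.5% in the latter. For KO against HET the count of 0 became 1 by DESeq2, 1 by limma voom and 1 without the libraries over 1% ribosomal RNA genes. That last fit called 1013 of 19476 genes higher and 647 lower. HET against WT gave 0 under all alternatives run. H2-Eb1, Cd74 and Ciita kept a positive sign in KO against WT under every alternative run, at 0.56 to 1.51, 0.27 to 0.58 and 0.29 to 0.96. Signs of uncalled genes changed as follows, and the cause was not tested. In KO against WT, H2-Aa was at 0.17 by limma voom, 0.54 with the number range term and 0.44 from 700 upward, H2-DMb1 at 0.36 and 0.66 in the latter 2, and H2-DMa at -0.24 by limma voom. Without the libraries over 1% ribosomal RNA genes, H2-Ab1 was at 0.02 and H2-DMa at -0.04 in that comparison, and H2-Aa at 0.04 in HET against WT and -0.56 in KO against HET. In HET against WT, H2-Aa was at 0.19 with the number range term and 0.25 from 700 upward. Leaving out 1 library gave, in KO against WT, -0.52 to 0.51 for H2-Aa, -0.35 to 0.71 for H2-Ab1, -0.35 to 0.84 for H2-DMa and -0.81 to 0.39 for H2-DMb1. In HET against WT it gave -1.07 to 0.41 for H2-Aa and -0.99 to 0.23 for H2-DMa, and in KO against HET -0.38 to 1.02 for H2-Aa and -0.02 to 1.05 for H2-DMb1. No paired analysis was possible because the genotypes share no animal numbers. The lowest count of the 7 genes in a library was 15, for H2-DMb1, so counting error adds to the spread between animals there.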
